A study of Mus musculus with 3 samples.

Results

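The blood lymphocytes of aged mice given ascorbic acid (AA, vitamin C) were set against those of young mice given PBS, within T-, B- and NK-like cells. The study profiled single peripheral blood mononuclear cells of C57BL/6 mice with the 10x Chromium 3' v3 kit, in 3 libraries of 1 group each. The young group had received PBS and the aged group AA, each for 1 month, and both carried the genotype c57bl/6. The third group, aged mice given PBS, was not used here, so the library compared with the young one differed from it in age and in AA together, and these cannot be told apart. The number and sex of the mice behind a library and their age in months are not stated in the sources used here, and the series title speaks of middle-aged mice where the labels say aged.

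Cells were chosen by the counts of unique molecular identifiers (UMIs), each marking 1 captured RNA molecule. Barcodes with 500 or more UMIs, 250 or more genes and no more than 10% of UMIs from mitochondrial genes were used. They numbered 9147 young and 11713 aged+AA, together 20860 of the 31064 that passed in the whole series. After predicted doublets (412 and 483) were removed and the rest clustered, 18451 cells carried the markers of T, B or NK cells and form the material described here. They comprised 5444 young and 4586 aged+AA T-like cells, 2520 and 5270 B-like cells, and 383 and 248 NK-like cells. Clusters were named by such markers, so the marker levels given next describe the classes and do not check them. Levels are given as CPM, a gene's UMIs relative to the class total after the scaling between libraries described below. Unscaled CPM and CPM in free RNA lack that scaling. Cd3d, a chain of the T-cell receptor complex, stood at 1004 and 868 CPM in young and aged+AA T-like cells, and at 23.3 and 17.0 in B-like cells. Cd79a, the signalling partner of the B-cell receptor, stood at 3760 and 3852 in B-like cells, and Ncr1, the NK receptor NKp46, at 501 and 742 in NK-like cells.

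T cells recognise antigen through the T-cell receptor. Naive T cells circulate through lymph nodes in a quiescent state kept by factors such as Tcf7 and Lef1, and after antigen contact some become memory or effector cells that carry granzymes, chemokines and receptors for inflamed tissue. B cells leave the bone marrow as transitional cells, settle as follicular or marginal zone cells, and can become memory or antibody-secreting cells. NK cells kill without antigen receptors of their own and read inhibitory and activating receptors of the Ly49 and NKG2 families. In ageing mice the naive share of blood T cells is known to shrink and that of memory and effector cells to grow. Ascorbate is a cofactor of iron-dependent dioxygenases, among them the TET enzymes and many histone demethylases.

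Each gene's UMIs were summed per class and library and scaled so that the median gene with at least 100 UMIs did not differ between the libraries. The ratio of aged+AA over young is given with an exact conditional binomial 95% interval. With 1 library per group the interval covers counting error only, no test was made and no difference has a replicate check. Unscaled, the median gene stood 0.19 (T-like), 0.14 (B-like) and 0.04 (NK-like) higher in aged+AA on the log2 scale, and all ratios below are relative to that. A gene counted as higher or lower from a 2-fold difference, a ratio of at least 2 or at most 0.5.

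T-like cells had median depths of 4964 (young) and 5421 UMIs (aged+AA), B-like cells 3418 and 3560, and NK-like cells 3038 and 3115. The mitochondrial share of UMIs was lower in aged+AA cells of each class (5.15% against 4.34% in T-like cells, 5.89% against 4.87% in B-like and 3.48% against 2.89% in NK-like cells). Free RNA was estimated from the haemoglobin share of the median cell of a class. By that estimate it made up 0.911% to 1.28% of the young and 1.67% to 2.80% of the aged+AA UMIs. The summed UMIs of each class held more haemoglobin than this estimate gives, so RNA from other cells in the sums can exceed it. Xist, transcribed from the inactive X chromosome, was at 812 and 760 CPM in T-like cells, while the Y-linked genes Ddx3y, Eif2s3y, Kdm5d and Uty had at most 1 UMI in any class of either library. The libraries shared 28 passing barcodes, 0.306% of the young ones.

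Among T-, B- and NK-like cells, T-like cells held 65.2% of the young library (64.2 to 66.2%, exact binomial interval) and 45.4% of the aged+AA library (44.4 to 46.4%). B-like cells held 30.2% and 52.2%, a ratio of 1.73 (1.65 to 1.81). NK-like cells held 4.59% and 2.45%, a ratio of 0.535 (0.454 to 0.629). A limit of 5% mitochondrial UMIs moved the B-like ratio to 2.49 and the NK-like ratio to 0.300.

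T-like cells of the aged+AA library had higher levels of most effector and cytotoxic genes and of some memory genes, and few naive genes were lower by 2-fold. Of 9931 genes with at least 100 UMIs, 321 were at least 2-fold higher (3.23%) and 137 at least 2-fold lower (1.38%), while 87.6% lay within 1.5-fold of the young level. By its estimate, free RNA could supply over 20% of the aged+AA level of at least 45 of the 321 higher genes. Of the genes past 2-fold 70.1% were higher, against 84.5% in unscaled CPM. Of a list of 25 effector and cytotoxic genes, 19 were higher and 0 lower, with a median log2 ratio of 2.18 against 0 over all genes tested. Of 12 NK-cell markers 11 were higher in T-like cells, with a sum of 271 and 649 CPM. Gzma, Klrk1, Klrd1 and Eomes belong to both lists, so part of this joint movement is given by their make-up. Gzma alone held 49.4 and 236 CPM of the sum, and Ncr1 stood at 1.31 and 1.57. Of 12 T-cell markers 10 were lower (7136 and 6003 CPM in sum). The part of NK cells in the result was not tested. Of 25 memory and migration genes, 10 were higher and 0 lower, with a median log2 ratio of 0.87 (0.48 to 1.17 over settings). Of 25 genes of naive and quiescent T cells, 0 were higher and 3 lower, and 20 lay below the young level, with a median log2 ratio of -0.42 (-0.23 at the other end of its range over settings).

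Of the 12 named higher genes 4 were granzymes or chemokines. Gzmk, a granzyme of memory-type CD8 T cells, had 46 UMIs in young and 586 in aged+AA T-like cells, or 1.72 and 20.4 CPM, a ratio of 11.9 (8.79 to 16.4), or 7.61 with at most 5% mitochondrial UMIs. Gzmm, another granzyme, stood at 7.75 and 55.7 CPM (7.19, 6.21 to 8.35). Gzma stood at 49.4 and 236 CPM and Gzmb at 8.01 and 37.8. The chemokine Ccl5, which draws leukocytes to inflamed tissue, was by far the most abundant of the list, at 856 CPM in young and 5103 CPM in aged+AA cells, a ratio of 5.96 (5.88 to 6.04). Ccl4, another inflammatory chemokine, had 96 and 810 UMIs (7.86, 6.36 to 9.82), and Xcl1 stood at 6.22 and 28.1 CPM. The transcription factors Eomes (8.31 and 37.1 CPM), Tbx21 (2.32 and 10.1) and Zeb2 (3.67 and 20.5), which direct effector programmes, were higher too, and so was Ifng, at 4.64 and 22.6 CPM. Id2, an inhibitor of E-protein factors, was the 1 member below the young level (227 and 172 CPM).

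Some receptor genes, among them ones usual on NK cells and on antigen-experienced CD8 T cells, were higher as well. Klrc2, an activating NKG2 receptor, had 175 young and 1264 aged+AA UMIs, a ratio of 6.73 (5.74 to 7.93). Klrk1, which encodes NKG2D, stood at 13.1 and 65.3 CPM. Fcgr2b, the inhibitory Fc receptor, had 16 and 202 UMIs (11.8, 7.07 to 21.0), of which free RNA could supply 11.9% of the aged+AA level. Its ratio was 32.9 with classes assigned cell by cell from UMIs of lineage markers, in place of clusters, and 6.39 with each library clustered alone. Of 12 B-cell markers 10 were higher and 2 lower in aged+AA T-like cells, with sums of 253 and 331 CPM. The B-cell gene Ms4a1 stood at 3.07 CPM in young and 10.6 CPM in aged+AA T-like cells. The part of B cells in the Fcgr2b ratio was not tested. S1pr5, a sphingosine phosphate receptor of circulating effector cells, had 21 and 223 UMIs (9.90, 6.32 to 16.3), and a ratio of 6.15 at the 5% mitochondrial limit. The rest of the 12 named higher genes included Ifitm2 (12.1, 6.90 to 23.2), Smpdl3b (11.3), Lrrk1 (9.35), Bmpr1a (8.45) and Kcnj8 (7.92), each with at most 37 young UMIs.

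Genes of memory and tissue migration stood above the young level in 24 of 25 cases. Cxcr3, a receptor for interferon-induced chemokines, was at 12.4 CPM in young and 52.7 CPM in aged+AA cells. Itgb1, an integrin chain, was at 56.2 and 163 CPM, Il18r1 at 27.7 and 88.6, S100a6 at 166 and 486 and Ahnak at 78.5 and 236. Cd44, the adhesion receptor by which memory cells are commonly recognised, stood at 27.9 and 60.8. The homing integrins Itga4 (187 and 184 CPM) and Itgb7 (204 and 209) were nearly level.

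In the naive list the 3 genes past 2-fold were Ly6c1, Dapl1 and Id3. Ly6c1 stood at 67.0 CPM in young and 18.1 CPM in aged+AA cells, a ratio of 0.271 (0.245 to 0.299), whereas Ly6c2, a near-identical neighbour in the memory list, stood at 150 and 357. Reads of such copies may have been split between them in counting. Dapl1 was at 353 and 146 CPM and Id3, a repressor of E proteins, at 143 and 62.3. Lef1 (669 and 348), Satb1 (742 and 432) and the IL-7 receptor chain Il7r (1050 and 634) did not reach 2-fold. Klf2, a factor of quiescence and recirculation, was at 1855 and 2048 CPM, and Ccr7 at 520 and 478.

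Regulatory and inhibitory genes gave smaller counts. Of 13 regulatory T-cell genes 3 were lower: Foxp3, the factor that defines the lineage (6.29 and 2.58 CPM), Lrrc32 (3.41 and 1.29) and Gpr83 (8.12 and 3.49). Ikzf2, which encodes Helios, stood at 40.9 and 52.4. Cluster 15, led by Foxp3 and Il2ra, held 3.32% of the young and 1.05% of the aged+AA T-like cells. Of 12 measured genes for inhibitory receptors and exhaustion 3 were higher, namely Lag3 (0.861 and 3.49 CPM), Entpd1 (1.8 and 4.40) and Cd160 (9.06 and 20.9), and the median log2 ratio was 0.05. None of 20 genes of T-cell receptor signalling passed 2-fold. Cd8a stood at 110 and 163 CPM (1.48, 1.41 to 1.55), Cd8b1 at 317 and 376 (1.18, 1.15 to 1.22) and Cd4 at 57.5 and 42.5 (0.739, 0.685 to 0.797), directions kept in unscaled CPM. Myh9, the non-muscle myosin heavy chain named in the series title, stood at 316 and 287 CPM in T-like cells (0.908, 0.881 to 0.936), a ratio that lay on the other side of 1 in unscaled CPM (1.04). Its ratio was 1.06 (1.00 to 1.12) in B-like and 1.05 (0.904 to 1.23) in NK-like cells.

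The share of T-like cells with a UMI of these genes followed the summed levels. After each cell was thinned to 1000 UMIs, leaving out 8 young and 12 aged+AA cells below that depth, Ccl5 was seen in 7.95% of young (7.24 to 8.70%) and 39.7% of aged+AA T-like cells (38.3 to 41.1%). Without thinning the shares were 13.7% and 54.4%. In B-like cells, which should lack Ccl5 RNA, the thinned shares were 1.39% and 7.50%. Cxcr3 was seen in 0.809% and 4.66% of thinned T-like cells (3.64% and 19.1% unthinned), against 0.0398% and 0.457% of B-like cells.

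**Figure D1:**
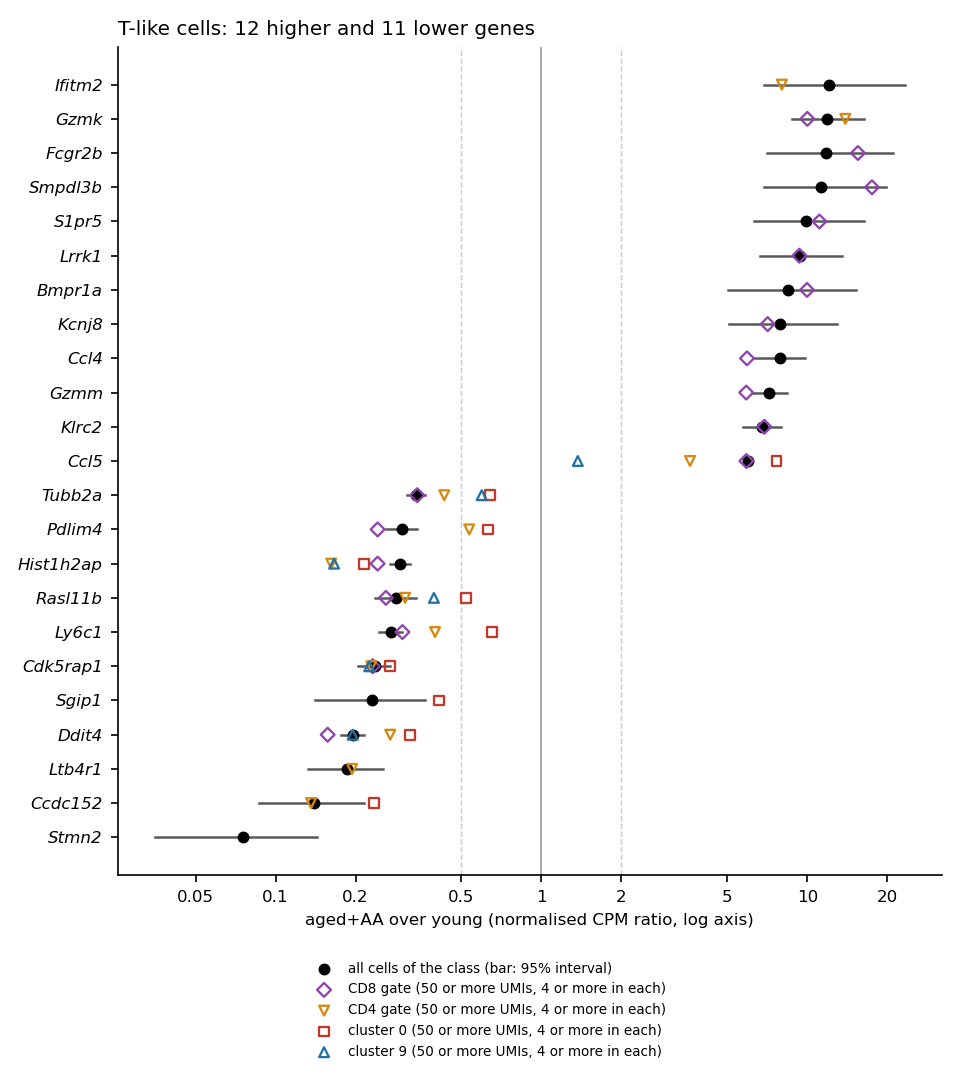
Ratio of aged+AA over young for the 12 higher and 11 of the 12 lower genes of T-like cells, on a log axis; black dots and bars give all T-like cells with the 95% interval from counting, and open symbols give cells with a Cd8a or Cd8b1 UMI and no Cd4 UMI (CD8 gate), the reverse (CD4 gate), and clusters 0 and 9, where the gene had at least 50 UMIs and at least 4 in each library. Cdk5rap1 lies at nearly the same place in every set of cells, while Tubb2a, Pdlim4 and Ly6c1 lie closer to 1 in cluster 0 than in all T-like cells.

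How far the T-like differences held in narrower sets of cells was measured next. The clusters that held the T-like cells differed between the libraries. Cluster 0, with Cd4 and Igfbp4 among its leading genes, held 54.3% of the young and 24.3% of the aged+AA T-like cells, and cluster 9, with Cd8b1 and Dapl1, held 30.7% and 25.8%. Cluster 6, led by Gzmm and Ccl5 among others, held 5.51% and 25.9%, and cluster 11, led by Maf and Itgb1 among others, 2.90% and 13.0%. Cluster 10, whose leading genes include Gzmk and the proliferation marker Mki67, held 1.08% and 8.02%. The clusters were drawn from the same genes, so these shares are given only to locate the cells.

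In cells with a Cd8a or Cd8b1 UMI and no Cd4 UMI (2029 young, 2418 aged+AA), 178 of 211 measurable higher genes remained past 2-fold, and the effector list had a median log2 ratio of 2.24. Gzmk was at 2.40 and 24.1 CPM there and S100a6 at 79.7 and 411. In cells with a Cd4 UMI and no CD8 UMI (1071 and 727), 54 of 68 remained. Itgb1 was at 86.8 and 301 CPM in them, Cxcr3 at 12.9 and 80.1 and Gzmk at 1.61 and 22.4. S100a6 and Cxcr3 were thus at least 2-fold higher in both gates, as was Gzmk.

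Inside cluster 0, of the 321 higher genes 48 could be measured and 22 remained past 2-fold, and inside cluster 9, 20 of 78 remained. In T-like cells without a Ccl5 UMI 91 of 145 remained, in cluster 6 48 of 159 and in cluster 11 18 of 75. Of the 137 lower genes, 27 of 87 remained in cluster 0 and 24 of 69 in cluster 9. Without a Ccl5 UMI 52 of 115 remained, in cluster 6 20 of 37 and in cluster 11 9 of 25. The effector list had median log2 ratios of -0.00 over 9 genes in cluster 0 and -0.20 over 10 genes in cluster 9, where it was 2.18 over all T-like cells. It was 0.36 over 21 genes in cluster 6, 0.24 over 11 in cluster 11 and 0.25 over 16 in T-like cells without a Ccl5 UMI. Since the clusters were drawn from these genes, clusters 0 and 9 hold cells with little effector RNA by construction. The naive list stood at -0.12 in cluster 0, 0.01 in cluster 9, -0.25 in cluster 6 and -0.02 in cluster 11, in place of -0.42. Itgb1 was at 16.2 and 16.7 CPM in cluster 0 and at 20.8 and 22.7 in cluster 9. Ddit4 (0.320 in cluster 0, 0.195 in cluster 9), Cdk5rap1 (0.269 and 0.225) and Hist1h2ap (0.215 and 0.166) kept ratios under 0.5 in both clusters. Bmpr1a, a receptor for bone morphogenetic proteins, was higher inside these clusters too, on few young UMIs (7 in cluster 0, ratio 10.2, 4.39 to 27.5; 3 in cluster 9, ratio 11.8, 3.63 to 60.7).

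The lower genes of all T-like cells mixed rare and abundant transcripts. Ddit4, an inhibitor of the growth kinase mTORC1, had 2330 and 490 UMIs, or 87.2 and 17.1 CPM, a ratio of 0.196 (0.177 to 0.216). Cdk5rap1, an RNA-modifying enzyme of mitochondria, was at 38.2 and 9.0 CPM (0.236, 0.205 to 0.270). Tubb2a, a tubulin, was at 90.4 and 30.6 CPM, Pdlim4 at 33.8 and 10.1 and Ltb4r1, a leukotriene B4 receptor, at 8.87 and 1.64. Rasl11b, a small GTPase of the Ras family, had 533 and 162 UMIs (0.283). Stmn2, a microtubule regulator, had 124 young and 10 aged+AA UMIs, none of them in clusters 0, 9 or 6, and its ratio lay between 0.0261 at the 5% limit and 0.154 with equal weight per cell. Cluster 12, led by Cd163l1 and the gamma chain gene Tcrg-C1 among others, has Stmn2 and Ltb4r1 among its leading genes and held 0.900% and 0.589% of the T-like cells. Ccdc152 (0.140) and Sgip1 (0.231) were also among the 12.

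B-like cells differed by fewer genes. Of 9168 genes tested, 64 were at least 2-fold higher in aged+AA (0.698%) and 87 at least 2-fold lower (0.949%), and 92.6% lay within 1.5-fold. Higher genes made up 42.4% of those past 2-fold, against 58.6% in unscaled CPM and 54.1% in CPM computed without the most abundant gene groups. None of 22 genes of B-cell identity and the B-cell receptor, none of 18 genes of follicular cells and homing and none of 12 genes of MHC class II presentation passed 2-fold. Cd74, the class II invariant chain, was at 16038 and 16788 CPM, and Cd22, an inhibitory co-receptor, at 110 and 159. Different clusters held most B-like cells in each library, cluster 4 with 73.0% of the young and cluster 3 with 62.4% of the aged+AA cells. A cluster held mostly by 1 library may reflect that library and not a cell type. Cluster 5, led by Bhlhe41 and Zbtb32, genes of B-1 cells, held 9.60% and 21.5%.

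The 10 named higher genes of B-like cells were rare transcripts. Nt5e, which encodes the ectoenzyme CD73 of memory B cells, had 19 young and 197 aged+AA UMIs, or 1.99 and 8.92 CPM, a ratio of 4.49 (2.80 to 7.61). Cxcr3 had 13 and 148 UMIs (4.93, 2.79 to 9.47), and none of the 13 young UMIs lay outside cluster 5. Dnm3, a dynamin, had 7 and 100 UMIs (6.18, 2.89 to 15.8). Myof, Rab20, Rhbdf1, Mapk12 and Il9r had ratios of 5.24, 3.93, 4.80, 3.15 and 2.98. Crisp3, with 101 and 562 UMIs, was the most abundant of the 10, at 10.6 and 25.4 CPM (2.41, 1.95 to 3.01), and Pltp, a lipid transfer protein, stood at 7.64 and 20.3. Without cluster 5 the ratio of Nt5e was 2.17 (1.17 to 4.34) and that of Dnm3 1.54, while those of Rab20 (5.98) and Mapk12 (4.17) were larger. With at most 5% mitochondrial UMIs Rab20 and Pltp no longer passed 2-fold (1.95 each), Nt5e stood at 2.29, and Mapk12 (6.69), Rhbdf1 (9.09) and Crisp3 (3.70) were larger.

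A metallothionein and a zinc exporter were among the 10 named lower genes. Mt1, a metallothionein that binds zinc and copper, had 384 UMIs in young and 64 in aged+AA B-like cells, or 40.2 and 2.90 CPM, a ratio of 0.0721 (0.0545 to 0.0942). The ratio was 0.172 with classes assigned cell by cell and 0.149 with each library clustered alone. Slc30a1, a zinc exporter, had 209 and 130 UMIs, or 21.9 and 5.88 CPM (0.269, 0.215 to 0.337). Inside cluster 5 the Mt1 ratio was 0.0388 (0.0262 to 0.0558) and without it 0.0958 (0.0626 to 0.142), so Mt1 was lower in both sets. In T-like cells Mt1 was at 9.96 and 3.31 CPM (0.333, 0.261 to 0.422) and Slc30a1 at 16.6 and 6.84 (0.412, 0.347 to 0.489). Both genes are known targets of the metal-sensing factor MTF1, whose response elements share the core TGCACNC or TGCGCNC. The promoters, 300 bases each from RefSeq on GRCm38.p6 and printed 5′ to 3′ along the gene, are shown because these genes were lower together; capitals mark matches to either core on either strand.
Mt1, chr8:94178839-94179138, plus strand: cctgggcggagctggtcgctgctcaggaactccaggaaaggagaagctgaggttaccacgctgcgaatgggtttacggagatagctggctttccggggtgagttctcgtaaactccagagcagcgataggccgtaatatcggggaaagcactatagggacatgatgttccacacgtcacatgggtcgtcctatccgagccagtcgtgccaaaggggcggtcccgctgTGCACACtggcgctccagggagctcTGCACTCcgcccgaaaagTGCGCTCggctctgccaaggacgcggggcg
Slc30a1, chr1:191906531-191906830, plus strand: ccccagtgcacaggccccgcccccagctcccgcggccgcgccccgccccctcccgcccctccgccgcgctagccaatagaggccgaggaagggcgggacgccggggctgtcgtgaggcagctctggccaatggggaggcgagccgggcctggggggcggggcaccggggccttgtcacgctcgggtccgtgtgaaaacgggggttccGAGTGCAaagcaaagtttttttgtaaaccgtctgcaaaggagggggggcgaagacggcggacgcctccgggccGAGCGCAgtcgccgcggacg
Mt1 held 3 matches and Slc30a1 2. Of 32851 promoters of this length 25.7% held at least 1 match and 1.97% at least 3. Among the 10288 promoters of genes tested in these cells the shares were 35.9% and 3.16%, and a match is a description of letters, not of binding.

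The other named lower genes of B-like cells were of several kinds. Cdk5rap1 had a ratio of 0.287. Hist1h2ap was at 229 and 53 CPM (0.231, 0.215 to 0.249), and Hist1h1a (0.196) and Hist1h3f (0.209), with 108 and 83 young UMIs, had like ratios. Histone genes are near-identical copies, so counts of single members are uncertain. Ddit4 was at 112 and 22.4 CPM (0.201, 0.180 to 0.224) and Gadd45g, a stress-inducible growth inhibitor, at 160 and 48.1 (0.300, 0.277 to 0.324). Adm, the vasoactive peptide adrenomedullin, had 178 and 95 UMIs (0.231, 0.178 to 0.298), and Serpine2 had 99 and 54 (0.236). With each library clustered on its own Adm stood at 0.60 and Serpine2 to 0.509, and in that setting a young cluster of B-1 genes stayed without a name. Of 11 measured genes of transitional B cells 2 were lower, the progenitor factor Myb (9.31 and 2.99 CPM) and Sox4 (18.9 and 9.14). The list's median log2 ratio was -0.62, with Cd24a at 296 and 192 CPM and Vpreb3 at 308 and 227.

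Lists for marginal zone and B-1 cells and for age-associated and memory B cells split both ways. The first had 1 of 16 members higher and 2 lower, with a median log2 ratio of 0.05, and the second 2 higher and 2 lower of 16, with a median of 0.09. Cd36, a scavenger receptor of marginal zone cells, was at 11.3 and 3.89 CPM, and Fcrl5 at 14.1 and 6.79. Cd80, a co-stimulatory ligand, was at 6.49 and 3.12. Plac8 was at 862 and 499 CPM. Of 16 plasma cell genes the 1 past 2-fold was Jchain, at 2.20 and 24.8 CPM, for which free RNA could supply 24.6% of the aged+AA level. Plasma cell-like barcodes, outside the B-like class, numbered 4 and 75.

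NK-like cells had the fewest cells, UMIs and testable genes. Of 3052 genes tested, 12 were higher (0.393%) and 20 lower (0.655%), and 93.2% lay within 1.5-fold. Free RNA could by its estimate supply over 20% of the aged+AA level of at least 5 of the 12 higher genes. The higher share of those past 2-fold was 37.5%, against 62.7% when each cell had equal weight. Klra1, a Ly49 receptor, had 103 UMIs in young and 189 in aged+AA cells, or 76.1 and 219 CPM, a ratio of 2.87 (2.25 to 3.69). The Ly49 genes are similar enough in sequence that counts of single members are uncertain. It was the 1 gene of 21 measured NK receptors past 2-fold, and Klra8 (798 and 577 CPM), Klrc1 (268 and 214) and Klrk1 (692 and 602) lay on the other side of the young level. Ccl3 was at 119 and 324 CPM (2.72, 2.23 to 3.33) and Ccl4 at 693 and 1141 (1.65, 1.5 to 1.8). Zeb2, which drives the last step of NK maturation, was at 220 and 408 CPM (1.86, 1.59 to 2.18). Ccl3 was the 1 of 17 mature NK genes past 2-fold, and Gzma (13436 and 12141 CPM), Gzmb (1429 and 1287) and Prf1 (1062 and 900) were close to level. Nrgn, a calmodulin-binding protein, had 38 and 74 UMIs (3.05, 2.03 to 4.63), and with classes assigned cell by cell the ratio was 1.2.

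Among the lower genes of NK-like cells were Il7r (141 and 46.3 CPM, 0.328, 0.227 to 0.463) and Lef1 (140 and 61.3 CPM, 0.437, 0.316 to 0.595), both of less mature NK cells and of naive T cells. These moved with the T-cell markers in the class: 9 of 12 T-cell markers were lower in aged+AA NK-like cells, with summed levels of 1435 and 1188 CPM, and Cd3d stood at 96.8 and 59.0. With classes assigned cell by cell Il7r stood at 0.961 and Lef1 at 0.813, and at 0.833 and 0.864 with at most 5% mitochondrial UMIs. The part of T cells in the result was not tested further. Il7r and Tnfrsf9, a co-stimulatory receptor (80.6 and 35.9 CPM), were the 2 lower members of 14 immature NK genes, whose median log2 ratio of -0.39 turned to 0.10 at the 5% limit. All 12 B-cell markers were higher in aged+AA NK-like cells, at 149 and 584 CPM in sum, and haemoglobin and other erythroid genes summed to 42477 and 53343 CPM in the class. Gstp1, a glutathione transferase with a near-identical copy, was at 88.7 and 31.2 CPM (0.352, 0.223 to 0.538).

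**Figure D2:**
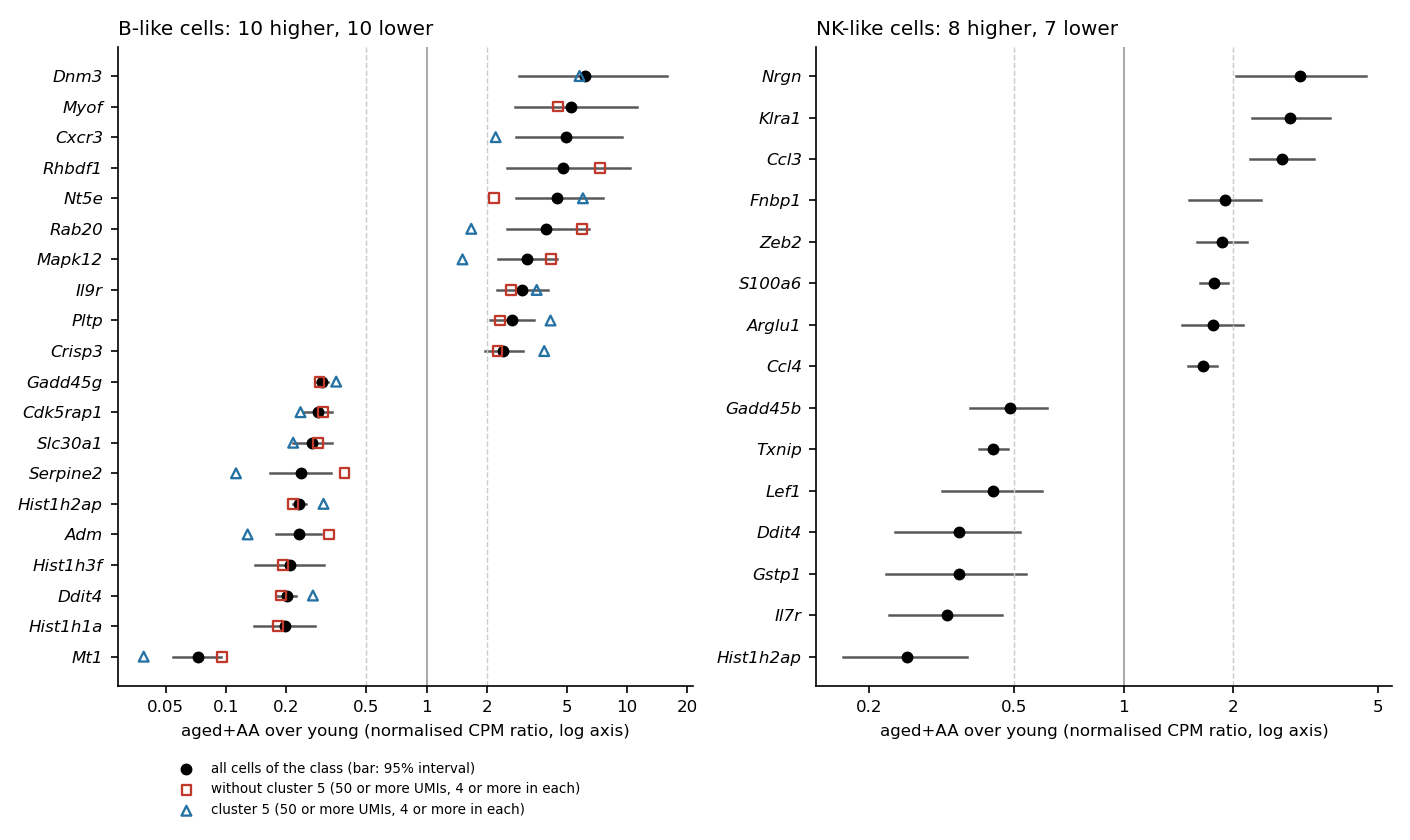
Ratio of aged+AA over young for the 10 higher and 10 lower genes of B-like cells (left) and for 8 higher and 7 of the 8 lower genes of NK-like cells (right), on log axes; black dots with bars are all cells of the class with the 95% interval from counting, and open symbols on the left are B-like cells without cluster 5 and cluster 5 alone, drawn from 50 UMIs with at least 4 in each library. Mt1 is the lowest B-like gene in every set of cells, and 5 of the 8 higher NK-like genes lie under the 2-fold line.

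Some differences were common to the 3 classes. Of 2950 genes tested in all of them, 0 were at least 2-fold higher in each class (0%) and 11 at least 2-fold lower in each (0.373%). In that common set 19 genes were lower in T-like and 29 in B-like cells, of which 13 coincided (68.4% of the first, 44.8% of the second). Of the 29, 14 were among the 19 lower in NK-like cells (48.3% and 73.7%). Of the 19 lower T-like genes 12 were among the 19 lower NK-like genes (63.2% of each). Of 66 higher T-like genes 8 were among the 9 higher B-like genes (12.1% and 88.9%). With the 9 higher NK-like genes 6 were shared (9.09% and 66.7%). Haemoglobin genes were among the 8. Their T- and B-like ratios were 9.19 and 2.90 (Hba-a1), 8.48 and 2.72 (Hba-a2) and 6.73 and 3.03 (Hbb-bs). Cd79a, a B-cell gene, was at least 2-fold higher in both T- and NK-like cells. How much of these overlaps came from RNA of other cells was not tested. Of the 9 higher B-like genes 0 were among the 9 higher NK-like genes. With 9 of 2950 genes on each side, that 0 cannot be read as a difference between the classes. The 11 shared genes included Ddit4, Gadd45b, Gadd45g, Hist1h2ap, Nabp1 and Txnip, with the mitochondrial genes mt-Atp8 and mt-Nd4l, the gene model Gm10076, and AY036118, a transcript often ascribed to ribosomal RNA. The comparisons used different cells of the same 2 libraries, so anything that touched a whole library reaches all 3 classes.

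Txnip, which restrains glucose uptake and binds thioredoxin, was the most abundant of these 6 nuclear genes, at chr3:96557957-96561883 on GRCm38. Its levels were 1680 and 643 CPM for the T-like class (0.383, 0.376 to 0.389), 1611 and 608 for the B-like (0.377, 0.369 to 0.386), and 1609 and 706 for the NK-like (0.439, 0.400 to 0.480). A thinned Txnip UMI was seen in 71.4% of young and 45% of aged+AA T-like cells. Ddit4, at chr10:59949669-59951834, had a ratio of 0.196 in T-like, 0.201 in B-like and 0.354 (0.235 to 0.519) in NK-like cells. Gadd45b, at chr10:80930073-80932204, stood at 245 and 118 CPM (T-like), 352 and 114 (B-like) and 214 and 104 (NK-like). In T-like cells its ratio passed 2-fold in 5 of 8 settings of cell limits, clustering, scaling and free RNA and was at most 0.552. Its kin Gadd45g, at chr13:51846678-51848468, had ratios of 0.415, 0.300 and 0.412, and with doublets kept it did not reach 2-fold in NK-like cells (0.646). Nabp1, a single-strand DNA binding protein encoded at chr1:51465862-51478425, had ratios of 0.452, 0.381 and 0.475, and did not reach 2-fold in T-like cells in unscaled CPM (0.516) or in NK-like cells with equal weight per cell (0.632).

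Hist1h2ap, at chr13:21833026-21833507, had ratios of 0.294, 0.231 and 0.254 in T-, B- and NK-like cells. AY036118 stood at 3861 and 797 CPM (T-like), 3693 and 821 (B-like) and 3748 and 1097 (NK-like). In free RNA it stood at 8422 and 869 CPM, and the part of free RNA in its difference was not tested. The mitochondrial gene mt-Atp8 stood at 439 and 160 CPM in T-like (0.364), 495 and 180 in B-like (0.364) and 307 and 125 in NK-like cells (0.407). Hist1h2ap has near-identical copies elsewhere in the genome, and its count is uncertain to that extent.

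**Figure D3:**
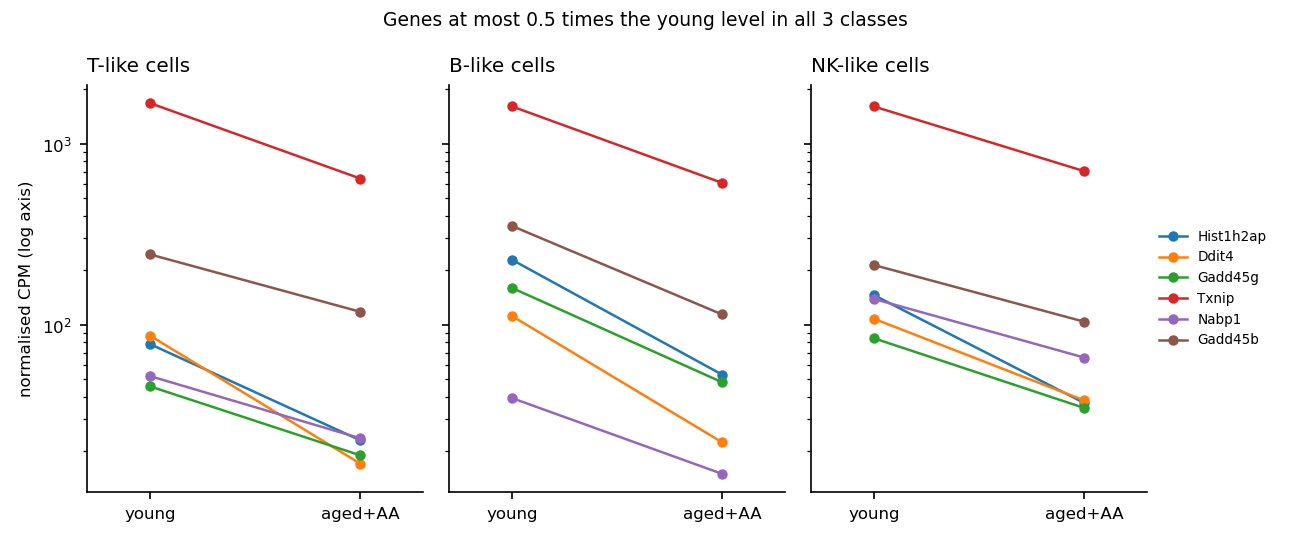
Normalised CPM (log axis) of 6 genes lower by 2-fold in all 3 classes, in young and aged+AA cells of each class; each line joins 1 gene's 2 libraries. Txnip is the most abundant, and every line slopes down.

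Genes induced by glucocorticoids, the stress hormones of the adrenal, include Ddit4 and Txnip. Of 17 measured members 8 were lower in B-like cells and 0 higher, with a median log2 ratio of -1.0. T-like cells had 3 of 17 lower (median -0.55) and NK-like cells 3 of 15 (median -0.22), and beyond Ddit4 and Txnip the member past 2-fold was Mt1 in the first and Il7r in the second. Tsc22d3, which encodes GILZ, was at 1822 and 897 CPM in B-like, 852 and 449 in T-like and 684 and 455 in NK-like cells. Fkbp5, a co-chaperone of the glucocorticoid receptor, was at 35.9 and 18.0 in B-like and 23.2 and 15 in T-like cells. Sgk1, a kinase, was at 71.3 and 29.1 and Dusp1, a MAP kinase phosphatase, at 487 and 200 in B-like cells. Per1 and Klf9, also hormone targets, stood above the young level in both T-like (82.0 and 92.3, 31.6 and 44.5 CPM) and B-like cells (76.6 and 95.6, 33.5 and 37.3). In T-like clusters 0 and 9 the list's median was -0.47 and -0.44, and in B-like cells without cluster 5 it was -0.92.

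Immediate early genes, which cells induce within minutes of stimulation or handling, differed by class. In B-like cells 3 of 22 were lower and 1 higher, and 18 lay below the young level (median log2 ratio -0.46). Dusp2 was at 796 and 356 CPM there, while Nr4a1, a marker of antigen receptor signals, was at 44.7 and 96.3. In T-like cells the median was 0.08, with 1 of 25 higher, and in NK-like cells 0 of 17 passed 2-fold. Chaperones were below the young level in 21 of 22 T-like, 19 of 21 B-like and 13 of 14 NK-like cases, with medians of -0.25, -0.33 and -0.32. Over the settings those medians reached -0.06, -0.19 and -0.28 at the upper end, and the counts were taken on the scaled values. The 2 inducible HSP70 genes were among the lowest, Hspa1b at 8.31 and 3.84 CPM in T-like and 10.8 and 3.89 in B-like cells, and Hspa1a at 2.77 and 1.43 and at 5.44 and 2.58. Hspa2 was at 43.8 and 14.0 CPM in B-like cells.

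**Figure D4:**
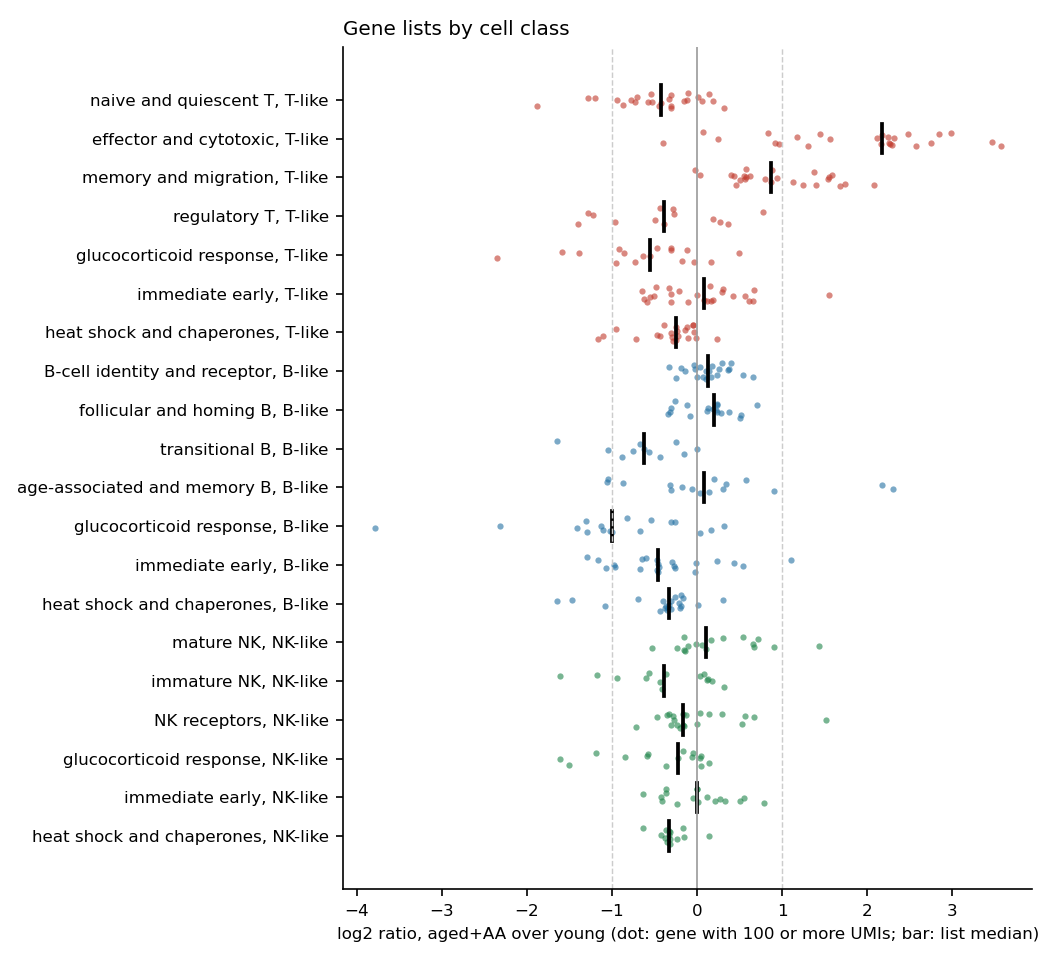
Log2 ratio of aged+AA over young for the measured members (dots) of 20 gene lists by class, with the list median as a bar and dashed lines at 2-fold. The effector and cytotoxic list of T-like cells lies farthest to the right, with a median of 2.18, and the glucocorticoid list of B-like cells farthest to the left, with a median of -1.0.

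Several pathways that bear on age or on ascorbate had few members past 2-fold. Over all genes tested, the shares higher and lower were 3.23% and 1.38% in T-like and 0.698% and 0.949% in B-like cells. In NK-like cells they were 0.393% and 0.655%, so most lists of this size would hold few such genes. The ascorbate list had median log2 ratios of -0.08 in T-like, 0.04 in B-like and -0.04 in NK-like cells. Of 33 measured genes for ascorbate transport and ascorbate-dependent dioxygenases in T-like cells 0 were higher and 2 lower, the DNA demethylase Tet1 (6.03 and 2.37 CPM) and Tmlhe, an enzyme of carnitine synthesis (8.76 and 3.52). In B-like cells 0 of 30 and in NK-like cells 0 of 12 passed 2-fold either way. Tet2 was at 42.6 and 39.1 CPM in T-like and 37.2 and 39.5 in B-like cells. The ascorbate transporter Slc23a2 was at 9.32 and 8.83 CPM in T-like and 9.21 and 11 in B-like cells. Of 26 antioxidant and ferritin genes in T-like cells 1 was lower, Selenop, a selenium carrier (138 and 59.2 CPM), and 0 of 25 in B-like and 0 of 16 in NK-like cells passed 2-fold. None of the glycolysis, nuclear respiratory chain, actin or non-muscle myosin II members passed 2-fold in any class. Of 47 interferon response genes 4 were higher in T-like cells (Ifitm2, Ifitm3, Oas1a and Gbp3) and 0 of 37 in B-like cells passed either way, with 28 of those 37 below the young level. Of the clock genes Bhlhe40 was higher in T-like cells (15.9 and 40.1 CPM) and Per3 in B-like cells (2.72 and 6.02), while Dbp stood at 6.36 and 6.28 and at 7.22 and 5.75.

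Receptors for cytokines and genes of survival gave few calls. Of 25 members of the common gamma chain and cytokine receptor list in T-like cells 3 were higher, Il18r1, Il15ra (2.36 and 5.93 CPM) and Il10rb (23.7 and 50.2), and 1 lower, the interferon gamma receptor chain Ifngr2 (128 and 52.3). In B-like and in NK-like cells Il7r was the 1 lower member (31.9 and 14.5 CPM in B-like cells). Of 18 apoptosis and survival genes in T-like cells 2 were higher, Birc5, which also marks dividing cells (3.52 and 10.0 CPM), and Pmaip1 (8.16 and 18.2). Among senescence and p53 genes 0 of 13 in T-like and 0 of 7 in NK-like cells passed 2-fold, and of 12 in B-like cells Sesn1, a stress-inducible inhibitor of mTORC1 signalling, was lower (615 and 287 CPM). The p53 gene Trp53 stood at 78.2 and 73.5 CPM in T-like cells, and the cell cycle inhibitor Cdkn1a at 9.32 and 7.19. Of 19 MHC class I genes H2-Q6 was higher in T-like cells (117 and 242 CPM), a gene with near-identical copies, and H2-K1 stood at 2370 and 2622. Of 23 NF-kB feedback genes in T-like cells Cd83 was higher (1.2 and 4.22 CPM) and Gadd45b lower, and in B-like cells Gadd45b and Tnf (6.69 and 1.99 CPM) were lower.

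Ribosomal and mitochondrial genes lay mostly below the young level. Of 83 measured cytosolic ribosomal protein genes 80 were below it in T-like and 81 in B-like cells, with median log2 ratios of -0.28 and -0.19. In unscaled CPM those medians were -0.09 and -0.05; the counts were taken on the scaled values. In NK-like cells 65 of 81 were below it, at a median of -0.10, which turned to 0.07 with at most 5% mitochondrial UMIs. All 13 mitochondrially encoded genes were below it in T- and B-like cells and all 12 measured in NK-like cells, with medians of -0.48, -0.45 and -0.41. Some marker lists of other blood cells were higher in T- and B-like cells. The erythroid list summed to 1284 and 8635 CPM in T-like and 2413 and 6441 in B-like cells, the neutrophil list to 6.74 and 26.9 and to 8.47 and 35.8, and the B-cell markers to 253 and 331 in T-like cells. The monocyte list summed to 185 and 408 CPM in T-like cells, mostly Ly6c2, and to 30.4 and 28.7 in B-like cells. T-cell markers in B-like cells were lower, 11 of 12, with sums of 163 and 131. Jchain, the joining chain made by plasma cells, had 6 and 1079 UMIs in T-like cells and was set aside with the immunoglobulin genes. The part of these cells and of free RNA in the differences above was not tested. Genes for which free RNA, by the median-cell estimate, could supply over 20% of the higher level were left out of the named genes. The counts of higher and lower genes keep them, and also keep haemoglobin and the other gene groups left out of the naming.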

How the data were processed

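The authors deposited UMI counts per gene and barcode, whose matrix headers name Cell Ranger 4. Seurat 3.1.0 and the build mm10 appear in the submitters' processing notes. Groups came from the labels. The members, gene lists and rules were chosen with earlier results of these data known.

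Barcodes passing the limits were screened with Scrublet per library and clustered together in scanpy 1.11.5 (2000 variable genes, 30 components, 15 neighbours, Leiden resolution 1.0, no batch correction). Markers were detected at 20 CPM or more and 25% of the level in the highest cluster, and a class needed 3 of them; these naming rules were set after the clusters were seen. Other clusters were left out, unnamed ones (18 young and 441 aged+AA cells) and a mixed one (28 and 5) included. Free RNA was the sum of barcodes ranked 45001 to 90000 by UMIs.

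Named genes were the 12 (T), 10 (B) and 8 (NK) each way whose interval bound nearest to 1 was farthest from it, without immunoglobulin, T-cell receptor variable, haemoglobin, mitochondrial, ribosomal, sex-linked and clone-named genes. Some genes within the counts are not reported here. List members were named for their ratio or UMIs; others were chosen after their values were seen. The ratio step was tested on simulated data. Alternatives covered cell limits, clustering, scaling, free RNA, gene filters and cell subsets; T-like clusters 0 and 9 and B-like cells without cluster 5 were chosen after seeing the data. p-values were not computed. Versions: Python 3.11.15, numpy 2.4.6, scipy 1.17.1, matplotlib 3.10.9.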

Additional observations from a re-analysis of the deposited data

Results flagged for a closer look

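In 4 genes the whole interval lay beyond 1.5-fold above the young level in T-like cells and beyond 1.5-fold below it in B-like cells. The difference between the classes was not tested. S100a6, a calcium-binding protein of memory cells, had a ratio of 2.92 (2.82 to 3.02) in T-like and 0.546 (0.513 to 0.581) in B-like cells. Its ratio in B-like cells was 0.308 in cluster 5 and 0.879 without it, and in NK-like cells 1.77 (1.62 to 1.94), also opposite to B-like cells. Atf3, a stress-inducible transcription factor and a leading gene of cluster 5, had a ratio of 2.92 (2.17 to 3.99) in T-like and 0.475 in B-like cells. Zcchc18 stood at 2.41 and 0.574, and Wee1, a kinase that holds back entry into mitosis, at 2.15 (1.5 to 3.13) and 0.420.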

How the results depend on the processing

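With 1 library per group the direction of no single gene can be checked against animals, and depth limited NK-like cells most, where 3052 genes could be tested. Class shares kept their direction under all alternatives. The T-like share ratio was 0.588 with classes assigned cell by cell; the B-like ratio was 2.49 at the 5% mitochondrial limit, 1.92 cell by cell and 1.84 with each library clustered alone, and the NK-like ratio 0.300 at the 5% limit. Higher T-like genes numbered 203 cell by cell, lower T-like genes 83 in unscaled CPM, higher B-like genes 107 with libraries clustered alone, and higher NK-like genes 22 with doublets kept and 37 with equal weight per cell. From 20 UMIs the counts of higher and lower genes were 747 and 360 (T), 265 and 324 (B), 204 and 168 (NK), with 22 shared. Without a minimum they were 2853 and 2276, 2610 and 2192, and 1720 and 2003, with 215 shared. At 1.5-fold they were 731 and 497, 310 and 370, and 95 and 114, with 35 shared. Among T-like subsets the counts were 91 lower in the CD8 gate, 121 and 65 in the CD4 gate, 124 and 71 without cells holding Ccl5, 38 and 53 in cluster 0, and 37 and 45 in cluster 9. These last 2 subsets were chosen after seeing the data. The immature NK list was at 0.10 at the 5% limit, on the other side of 0. No named gene changed direction under the settings of cell limits, clustering, scaling and free RNA, where 475 values stayed within the gene's counting interval and 82 lay outside it, among them Adm and Serpine2 in B-like and Il7r, Lef1 and Nrgn in NK-like cells. Ratios that moved by over 1.5 times and are not given above include Ltb4r1 in T-like (0.106 at the 5% limit, 0.323 with equal weight per cell), Hist1h2ap in T-like (0.195 with doublets kept) and NK-like (0.141 cell by cell), Dnm3 in B-like (12.5 cell by cell) and Cxcr3 in B-like cells (11.1 with equal weight per cell). No paired analysis was possible because each group is 1 library.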
